A study of Mus musculus with 4 samples.

Results

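The comparison described here sets sorted intestinal stem cells against progenitors of old mice on the control diet, gene by gene. Of the 38124 genes in the count tables, 10813 had at least 20 counts in either of the 2 libraries and were measured. Both libraries came from intestinal epithelium of 71-week-old male C57BL/6 mice on the normal diet, and their titles carry the tag WT. Sorting for GFP gave a GFP-high fraction, called intestinal stem cells in the labels, and a GFP-low fraction, called progenitors. A second pair of fractions, from mice of the same strain, age and sex on a high-fat diet (HFD), is used below only to set its values beside those of the control pair. Each of the 4 libraries was made from about 200K sorted cells pooled from 2 to 5 mice, so every group is 1 library and no value has a replicate. Which gene drives GFP is not named in the labels, nor whether both fractions came from the same mice. In a mouse line widely used for this sort GFP is inserted at Lgr5, and if that line was used, the level of Lgr5 follows the gate.

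Stem cells at the base of intestinal crypts divide throughout life and depend on Wnt and R-spondin signals, on Notch signals from their neighbours and on growth factors. Their daughters, the transit-amplifying progenitors, keep dividing as they move up the crypt and settle on a fate. Progenitors in which Notch stays active become absorptive enterocytes, and those that switch on Atoh1 become secretory cells, which include mucus-making goblet cells, hormone-making enteroendocrine cells, antimicrobial Paneth cells and tuft cells. A GFP-low gate therefore can hold early progenitors together with cells that have begun to express the genes of several mature types. In sorted pools, fewer cells of a type and less RNA per cell cannot be told apart.

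The GFP-high library held 5201394 counts over 15928 genes, and the GFP-low library 4677389 counts over 15745 genes. Levels are given as counts and as CPM, counts set relative to library sizes that the TMM method adjusted, and folds are ratios of CPM with an exact 95% interval for the ratio of Poisson counts. The log2 ratio sets GFP-high over GFP-low after 0.5 CPM was added to each value, which shrinks ratios of low genes. The reads carry no molecular identifiers and there is 1 library a side, so intervals cover counting error only, and a fold describes these 2 libraries. Messages encoded by mitochondria took 14.9% of the counts in GFP-high and 14.1% in GFP-low. An edgeR test of fraction used all 4 libraries, with diet as a second term, and is the source of every adjusted p below. Its error came from how far the fraction ratio differed between the diets, with 1 residual degree of freedom. Each gene's error was moderated toward that of all genes, so small p-values rest on this shared error as well. The 2 control libraries are part of that test, so it is not independent of the ratios that ranked the genes. The p-values describe these 4 pools only.

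The GFP-high fraction carried fewer genes with large differences above GFP-low than below it. Of the 10813 measured genes, 655 (6.06%) were at least 2-fold higher in GFP-high and 999 (9.24%) were at least 2-fold lower. The median log2 ratio was 0.01, and 7184 genes (66.4%) lay within 1.5-fold of equality. The imbalance widened with size. Counted on that log2 scale, at 4-fold there were 112 genes above and 343 below, at 8-fold 14 and 124, and at 16-fold 1 and 35. The genes at least 2-fold lower made up 14.3% of the counts of GFP-low and 4.26% of those of GFP-high, while the genes at least 2-fold higher made up 4.72% of GFP-high and 1.4% of GFP-low. The counting interval excluded equality for 647 of the 655 and for all 999. With library sizes taken as plain totals the split was 919 higher and 826 lower, and the median of all genes moved from 0.01 to 0.16, so directions of small differences hold relative to that shift. Genes given below as close to equality, such as Hnf4a, Ccnd1, Ccnd2, Bdh1, Lrp6, Mdm2, Mgam, Dpp4 and Tet3, are just below 0 under TMM and just above 0 with library totals. Just inside the count minimum, 65 genes whose higher library had 20 counts included 40% at 2-fold or more, against 30.9% of the 68 genes with 19 counts just outside it. Over both diets edgeR called 2297 of 10694 tested genes higher in GFP-high (21.5%) and 2656 lower (24.8%) at an adjusted p of 0.05. Counts of list members below are to be read beside these shares and those at 2-fold.

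**Figure D1:**
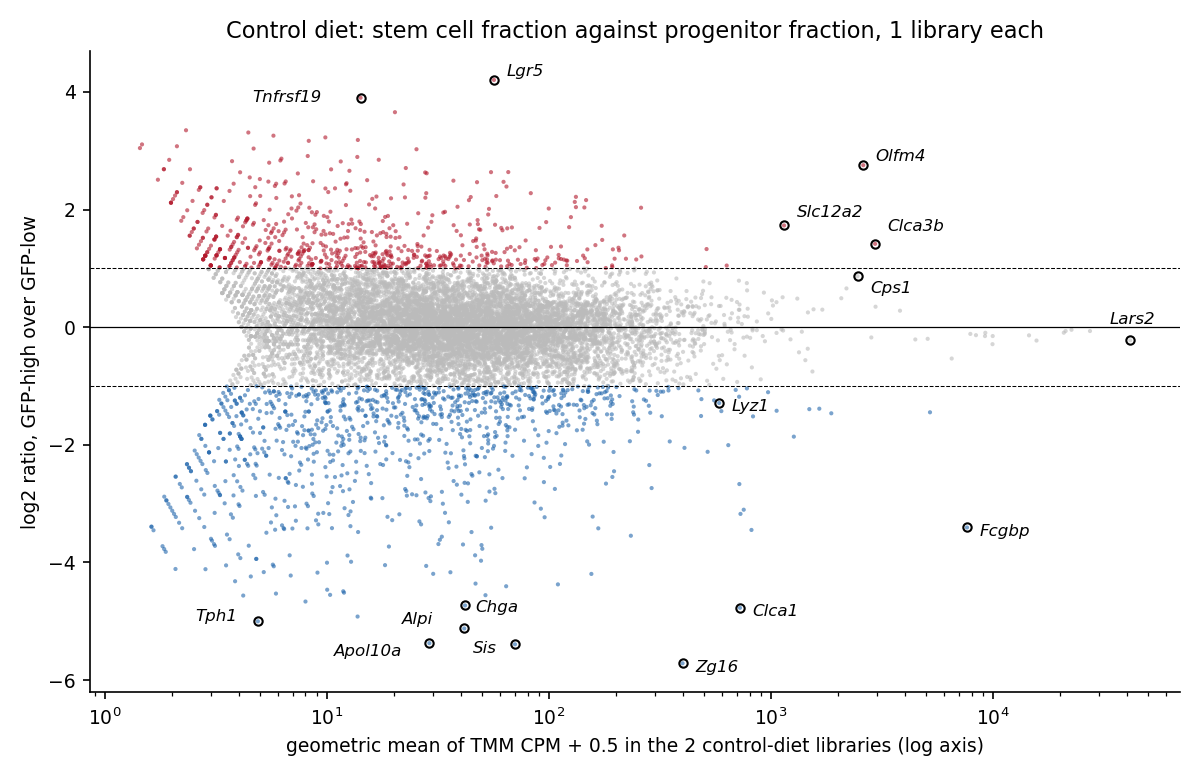
Each point is 1 of the 10813 measured genes, with its geometric mean level in the 2 control diet libraries (CPM, log axis) on the x axis and its log2 ratio (GFP-high over GFP-low) on the y axis. Red points are at least 2-fold higher and blue points at least 2-fold lower, dashed lines mark 2-fold, and the circled genes show that the lowest ratios (Zg16, Sis, Alpi) lie farther from 0 than the highest (Lgr5, Tnfrsf19).

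Genes that mark the crypt base were higher in GFP-high almost without exception. Of 27 such markers, all measured, 26 were at least 2-fold higher and none at least 2-fold lower, with a median log2 ratio of 2.13 against 0.01 over all genes, and edgeR called all 27 higher. Lgr5 (chr10:115450311-115587780 in GRCm38), the R-spondin receptor that defines these cells, had 1334 counts (242 CPM) in GFP-high and 56 (12.7 CPM) in GFP-low. It was 19.1-fold higher (interval 14.6 to 25.5), and was the only measured gene over 16-fold higher on the log2 scale. Tnfrsf19, a receptor of the TNF family known as Troy, had 299 counts (54.3 CPM) in GFP-high and 14 (3.16 CPM) in GFP-low, and was 17.2-fold higher (interval 10.1 to 31.8). Ascl2, the transcription factor that holds the stem cell state, had 280 counts (50.8 CPM) in GFP-high and 40 (9.04 CPM) in GFP-low. It was 5.62-fold higher, with an edgeR log2 ratio over both diets of 2.76 ± 0.18 SE (adjusted p = 6.73e-07).

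The most abundant stem cell message was that of Olfm4, a secreted glycoprotein of crypt base cells. It had 37247 counts (6762 CPM) in GFP-high and 4429 (1001 CPM) in GFP-low, was 6.76-fold higher (interval 6.55 to 6.97), and gained more CPM than any other gene. Per kilobase of exon its level was 2283 CPM in GFP-high and 338 in GFP-low, while Lgr5 stood at 23.6 and 1.23. Olfm4 was thus the far more abundant message per length in both fractions, and Lgr5 the one with the larger ratio. Slc12a2, the sodium-potassium-chloride importer of crypt cells, was 3.32-fold higher with 11482 counts (2084 CPM) in GFP-high and 2778 (628 CPM) in GFP-low. Smoc2, a secreted matrix protein, was 2.81-fold higher, and Sox9, a transcription factor shared by stem and Paneth cells, was 2.56-fold higher. The smallest ratio of the list was that of Prom1, a membrane protein also found along the crypt, at 2749 counts (499 CPM) in GFP-high and 1242 (281 CPM) in GFP-low, 1.78-fold higher. Among 7 measured markers of reserve or damage-resistant stem cells, 3 were at least 2-fold higher and none lower. Mex3a, an RNA-binding protein of slow-cycling stem cells, was 4.92-fold higher (interval 3.37 to 7.39), and Lrig1, an inhibitor of EGF receptors, was 2.25-fold higher. Bmi1, a Polycomb protein, stood at 33.0 and 26.2 CPM, and its interval of 0.993 to 1.60 included equality.

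**Figure D2:**
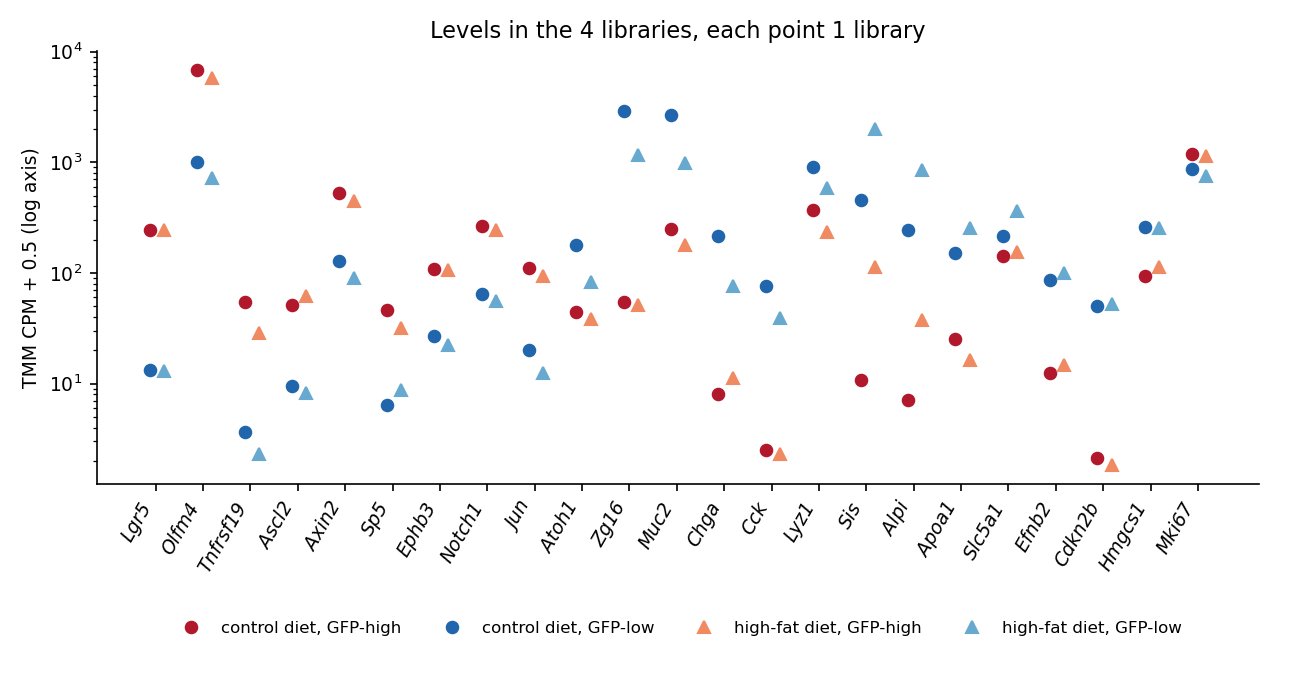
Levels of 23 named genes in each of the 4 libraries, as TMM CPM plus 0.5 on a log axis. Circles are control diet and triangles HFD, red is GFP-high and blue GFP-low, each symbol is 1 pooled library, and for Lgr5, Olfm4, Zg16 and Sis both GFP-high symbols stand apart from both GFP-low symbols.

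Among genes with at least 20 CPM in either fraction, the highest log2 ratios included several that are not on the list of crypt base markers. Cyp2e1, a cytochrome P450 enzyme, had 163 counts (29.6 CPM) in GFP-high and 12 (2.71 CPM) in GFP-low and was 10.9-fold higher. Pgc, the precursor of the gastric protease pepsin C, had 134 counts (24.3 CPM) in GFP-high and 10 (2.26 CPM) in GFP-low and was 10.8-fold higher. Il17rd, a membrane inhibitor of FGF signalling, was 10.1-fold higher with 226 and 18 counts. These genes were low in GFP-low but detected there. Slc1a2, a glutamate transporter, was 8.84-fold higher (121 and 11 counts). Slc14a1, a urea transporter, and Gkn3, a gastrokine, stand on the marker list and were 8.58-fold higher and 6.86-fold higher. Limch1 (8.15-fold higher), Ccdc3 (7.84-fold higher), Tcaf1 (7.18-fold higher), Nr2e3 (6.91-fold higher) and Sorbs2 (6.33-fold higher) completed, with Lgr5, Tnfrsf19, Sp5 and Olfm4, the 15 highest of these genes. Msi1, Musashi, which binds RNA, was 6.34-fold higher. Sorbs2 and Msi1 stand on the marker list as well. Sorbs2, Olfm4, Nr2e3, Slc1a2 and Ccdc3 share exon positions with other annotated genes, and the sources used here do not give the strand setting of the counting, so their counts may hold reads of those genes. The same limit holds below for genes whose exons overlap another gene, among them Axin2, Jun, Dll1, Dll4, Id4, Sox4, Notch1, Nox1, Nrg4, Ciita, Cdk4, Rb1, Paics, Impdh2, Pfkp, Cyp51, Mttp and Vil1.

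Of 21 measured transducers and feedback genes of the Wnt pathway, 6 were at least 2-fold higher and none at least 2-fold lower, with a median of 0.35, and edgeR called 9 higher and 1 lower. Axin2, which Wnt signals switch on and which in turn promotes breakdown of beta-catenin, had 2891 counts (525 CPM) in GFP-high and 566 (128 CPM) in GFP-low and was 4.10-fold higher (interval 3.75 to 4.50). Sp5, a zinc finger factor switched on by beta-catenin, had 250 counts (45.4 CPM) in GFP-high and 26 (5.88 CPM) in GFP-low and was 7.72-fold higher. Nkd1, an inhibitor of Dishevelled, was 6.83-fold higher (68 and 8 counts). The nuclear partners of beta-catenin differed among themselves. Tcf7 was 3.86-fold higher. Lef1 had 31 and 2 counts, a ratio of 12.4 with a counting interval of 3.17 to 107, whereas Tcf7l2, the main such factor of the intestine, was at 91.3 and 106 CPM (log2 -0.22). Beta-catenin itself, Ctnnb1, was at 623 and 612 CPM (log2 0.03), and Apc, the scaffold that marks it for breakdown, at 191 and 216 CPM.

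Of 14 measured R-spondin and Wnt receptors and ligases, 7 were at least 2-fold higher and 1 lower. Rnf43 and Znrf3, the membrane ligases that remove Frizzled receptors and are held off by R-spondin, were 3.68-fold higher (239.6 and 65.1 CPM) and 2.09-fold higher (69.3 and 33.2 CPM). Fzd7, the Frizzled receptor of Lgr5-positive cells, was 3.95-fold higher (interval 3.06 to 5.15). Fzd5, the Frizzled of the wider crypt, was at 234 and 365 CPM, 1.56-fold lower. Lgr4, the R-spondin receptor found throughout the crypt, stood at 1371 and 974 counts, and Lrp6, the Wnt co-receptor, at 159.6 and 165 CPM. Of the Wnt ligands and R-spondins, 1 gene passed the count minimum. That was Wnt3, a Paneth cell ligand, at 44 and 28 counts.

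The Sp5 promoter is shown because Sp5 had the highest log2 ratio of the transducers and feedback genes and a TCF/LEF motif stood near its start. It was chosen after the values were seen. The promoter of Axin2, whose CPM difference was larger (396.9 against 39.5), held no match. RefSeq promoters on GRCm38.p6, from 250 bases before to 50 after the gene start, were available for 8505 of 10731 measured genes and were searched on both strands for CTTTGAT and CTTTGAA. At chr2:70474673-70474922 on the plus strand, 1 match, in capitals, begins 104 bases before the start.
Sp5: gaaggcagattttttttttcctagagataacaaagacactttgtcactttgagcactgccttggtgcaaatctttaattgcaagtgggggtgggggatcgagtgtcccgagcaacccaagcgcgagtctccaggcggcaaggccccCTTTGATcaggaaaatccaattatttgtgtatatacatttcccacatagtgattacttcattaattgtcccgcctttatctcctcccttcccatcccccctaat
The motif was present in 6.63% of promoters of the genes at least 2-fold higher, 6.55% of those at least 2-fold lower and 6.19% of all measured promoters, and in 2 of 15 (13.3%) of the Wnt transducers and feedback genes. The share of promoters with the motif was thus close to the background on both sides.

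Among genes of cell contact signalling, Ephb3 was higher in GFP-high and the ligand Efnb2 lower. Eph receptors, which sort crypt cells by position, are known to be high at the crypt base, and B-class ephrins, their ligands, towards the villus. Ephb3 had 591 counts (107 CPM) in GFP-high and 116 (26.2 CPM) in GFP-low and was 4.09-fold higher (interval 3.35 to 5.04). Ephb2, whose gradient reaches farther up the crypt, was 1.42-fold higher at 264 and 186 CPM, and Epha4 was 5.67-fold higher on 120 and 17 counts. Efnb2 went the other way with 66 counts (12 CPM) in GFP-high and 382 (86.3 CPM) in GFP-low, 7.21-fold lower (interval 5.54 to 9.51), as did Efnb1 at 1.55-fold lower. The receptors Epha1 and Epha2 were also lower, 1.79-fold (interval 1.41 to 2.29) and 1.67-fold (interval 1.185 to 2.35). In all, 2 of 6 measured Eph receptors and 2 of 6 ephrins (Efna3 and Efna4) were at least 2-fold higher, and 1 ephrin, Efnb2, was at least 2-fold lower. Of the 6 Eph receptors edgeR called 4 higher and 2 lower.

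The receptors Notch1 and Notch2 were higher in GFP-high and the ligands Dll1 and Dll4 lower. Notch1 had 1475 counts (268 CPM) in GFP-high and 286 (64.6 CPM) in GFP-low and was 4.14-fold higher (interval 3.65 to 4.72), and Notch2 was 3.27-fold higher at 122 and 37.3 CPM. Hes1, the target that represses Atoh1, was 1.95-fold higher at 93.5 and 47.9 CPM. Across 13 measured receptors and targets, 2 were at least 2-fold higher and none lower, and edgeR called 7 higher and 1 lower. The ligands Dll1 and Dll4, which secretory progenitors display, had 496 against 939 and 151 against 299 counts. They were 2.36-fold lower (interval 2.11 to 2.63) and 2.47-fold lower (interval 2.02 to 3.02), and Jag1 was at 20.9 and 24.9 CPM. On HFD the same log2 ratios were -0.57 for Dll1 and -0.28 for Dll4, against -1.23 and -1.29 on control diet.

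Genes of the BMP pathway, which rises towards the villus and holds back stem cells, lay on both sides of equality. Of 23 measured genes, 3 were at least 2-fold higher and 3 lower (none lower among those with at least 100 counts), with a median of 0.07. Id4, a target of BMP signals, had 9 counts (1.63 CPM) in GFP-high and 69 (15.6 CPM) in GFP-low and was 9.54-fold lower, and the ligand Bmp2 was 3.66-fold lower on 16 and 47 counts. Rgmb, a BMP co-receptor, was 4.68-fold higher at 284 and 60.8 CPM. Id1 was at 35.2 and 41.4 CPM. In the hedgehog pathway, the ligand Ihh was 2.83-fold lower and the receptor component Smo 3.41-fold higher. Of growth factor genes, Igfbp4, a binding protein of insulin-like growth factors, was 4.91-fold higher (interval 4.16 to 5.82) at 182 and 37.1 CPM, Igf1r 2.66-fold higher, Nrg4, a ligand of the EGF receptor family, 4.10-fold higher, and Egfr 1.31-fold higher. Of 26 tested genes of insulin, IGF and mTOR signalling, edgeR called 8 higher and 3 lower, against 21.5% and 24.8% of all tested genes. Mtor (89.0 and 80.5 CPM) and Akt1 (238 and 236 CPM) had counting intervals that included equality.

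Transcription factors of intestinal identity had a median near equality, with a few members far to either side. Of 27 measured, 3 were at least 2-fold higher and 5 lower, with a median of -0.12 (0.0463 with library totals), and edgeR called 6 higher and 11 lower. Cdx2, the master factor of intestinal identity, was at 225 and 191 CPM (log2 0.23), and Hnf4a, a factor of the absorptive lineage, at 1111 and 1155 CPM (log2 -0.06). Its relative Hnf4g, in contrast, had 465 counts (84.4 CPM) in GFP-high and 1105 (249.7 CPM) in GFP-low and was 2.96-fold lower (interval 2.65 to 3.30). Klf4, a factor of differentiated cells that stops division, was 3.99-fold lower (interval 3.52 to 4.53) at 58.8 and 235 CPM. Maf, a factor of villus enterocytes, was 10.4-fold lower (43 and 360 counts) and Creb3l3, which switches on lipid genes, 18.6-fold lower (15 and 224). Sox4 was the highest of this list at 1727 counts (314 CPM) in GFP-high and 418 (94.5 CPM) in GFP-low, 3.32-fold higher.

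Factors of the secretory fate were mostly lower in GFP-high. Of 20 measured, 13 were at least 2-fold lower and 1 higher, with a median of -1.72 on control diet and -1.04 on HFD, and edgeR called 13 lower and 3 higher. Most of these factors have few counts. Of the 7 with at least 100 counts in either library, 3 were at least 2-fold lower and 1 higher, and the median was -0.167. Atoh1, which starts the secretory fate, had 242 counts (43.9 CPM) in GFP-high and 794 (179 CPM) in GFP-low, 4.08-fold lower (interval 3.53 to 4.74). Spdef, which drives goblet cell maturation, had 174 counts (31.6 CPM) in GFP-high and 644 (146 CPM) in GFP-low, 4.61-fold lower (interval 3.89 to 5.48). Neurog3, which starts the enteroendocrine fate and is on only briefly, was 1.76-fold lower, with 63 and 89 counts. The factors that follow Neurog3 were farther apart. Neurod1 was 5.36-fold lower, Rfx6 9.59-fold lower, Fev 12.8-fold lower and Runx1t1 12.2-fold lower, each on 23 counts or fewer in GFP-high. The log2 ratios of Atoh1 and Spdef were -2.02 and -2.19 on control diet and -1.09 and -1.21 on HFD.

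**Figure D3:**
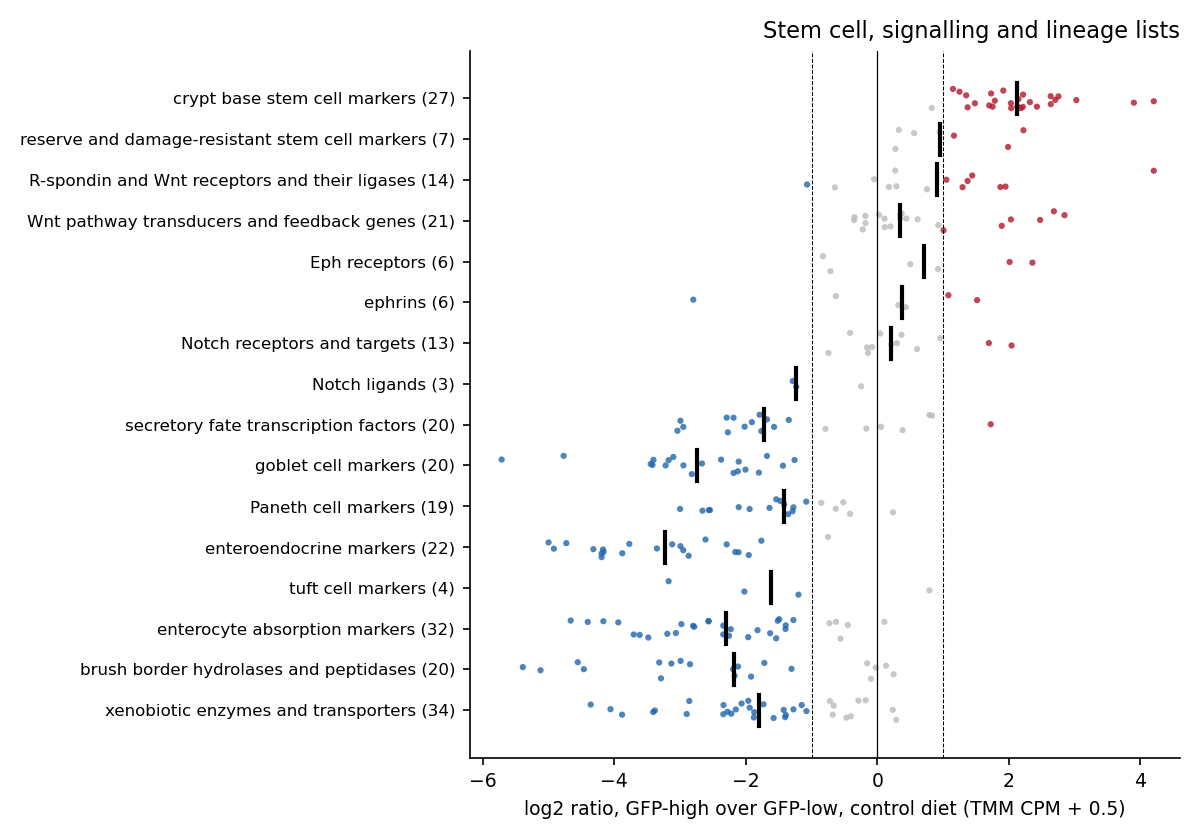
Log2 ratio (GFP-high over GFP-low) on control diet for the measured members of 16 lists of lineage and signalling genes. Each dot is 1 gene, the black bar is the list's median, and the stem cell list (median 2.13) lies far above 0 and the enteroendocrine list (median -3.24) far below it.

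Goblet cell genes gave the largest loss of reads. All 20 measured goblet markers were at least 2-fold lower in GFP-high, with a median of -2.74 against 0.01 over all genes, and edgeR called all 20 lower. Their summed counts were 24764 in GFP-high and 197569 in GFP-low. Most of that sum was Fcgbp, a mucus protein that cross-links mucin, with 12915 counts (2345 CPM) in GFP-high and 109892 (24836 CPM) in GFP-low, 10.6-fold lower (interval 10.4 to 10.8). Zg16 (chr7:127050156-127087328 in GRCm38), a lectin of the inner mucus layer, had 301 counts (54.6 CPM) in GFP-high and 12800 (2893 CPM) in GFP-low. It was 52.9-fold lower (interval 47.2 to 59.5) and was the lowest of all measured genes on the log2 scale. Its edgeR log2 ratio, which includes the control pair that ranked it, was -5.13, and the HFD pair alone gave -4.52. Clca1, a mucus-processing protease, was 27.4-fold lower (interval 25.5 to 29.5) at 138 and 3784 CPM. Muc2, the gel-forming mucin, was 10.9-fold lower at 247 and 2695 CPM, and Tff3, a trefoil peptide secreted with it, 9.04-fold lower at 242 and 2188 CPM. On HFD the list's median was -1.82, and both fractions of that pair are shown beside the control pair in the plot of levels by library.

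Enteroendocrine genes were lower in GFP-high almost throughout. Of 22 measured, 21 were at least 2-fold lower, with a median of -3.24 on control diet and -2.04 on HFD, and edgeR called 20 lower and none higher. Their levels were small in GFP-high, at 575 counts over the whole list against 6507 in GFP-low. Chga, the granule protein of these cells, had 42 counts (7.62 CPM) in GFP-high and 952 (215 CPM) in GFP-low, 28.2-fold lower (interval 20.7 to 39.4). Cck, the hormone cholecystokinin, had 11 counts (2.0 CPM) in GFP-high and 332 (75 CPM) in GFP-low, 37.6-fold lower (interval 20.7 to 76.0). Tph1, which makes serotonin, had 2 and 120 counts, so its fold of 74.7 has an interval of 20.2 to 624. Chgb, another granule protein, was 18.5-fold lower (interval 16.1 to 21.5), and Gip, an incretin, 29.6-fold lower on 4 and 95 counts. Ghrl, which encodes ghrelin, had 0 counts in GFP-high and 28 in GFP-low, at least 11.6-fold lower against the upper limit of 3 counts.

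Paneth cell genes were lower by a smaller margin. Of 19 measured, 14 were at least 2-fold lower and none higher, with a median of -1.42, and edgeR called 16 lower and 1 higher. Lyz1, the lysozyme of these cells, had 2056 counts (373 CPM) in GFP-high and 4037 (912 CPM) in GFP-low, 2.44-fold lower (interval 2.32 to 2.58). Mmp7, which activates defensins, was 2.68-fold lower at 83.5 and 224 CPM, and Itln1, an intelectin, 3.85-fold lower at 178 and 685 CPM. The alpha-defensins are near-identical copies whose reads cannot be told apart with certainty, and Defa24, the most counted of them, was at 81.0 and 253 CPM. Cd24a, a surface protein used to sort Paneth cells that is also found on crypt progenitors, was 1.18-fold higher. Reg3b and Reg3g, antimicrobial lectins that enterocytes make as well, were 5.87-fold lower and 6.35-fold lower. Tuft cell genes were sparse, and of 4 measured 3 were at least 2-fold lower, among them Avil (20 and 72 counts) and Dclk1 (1 and 25). The remaining tuft cell gene, Pou2f3, went the other way at 43 and 19 counts, 1.82-fold higher (interval 1.04 to 3.30).

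Genes of absorptive enterocytes were mostly lower in GFP-high. Of 32 measured enterocyte markers, 27 were at least 2-fold lower and none higher, with a median of -2.30 on control diet and -2.72 on HFD, and edgeR called 31 of 32 lower. Rbp2, which carries retinol in enterocytes, had 44 counts (7.99 CPM) in GFP-high and 672 (152 CPM) in GFP-low, 19-fold lower (interval 14.0 to 26.4). Krt20, a keratin of mature cells, was 21.9-fold lower (interval 17.3 to 28.1) at 13.4 and 294 CPM. Slc9a3, the sodium-proton exchanger of the brush border, had 6 and 176 counts, 36.5-fold lower (interval 16.4 to 101). The fatty acid binding proteins Fabp1 and Fabp2 were 12.9-fold lower (8.71 and 112 CPM) and 3.93-fold lower (48.8 and 192 CPM). Slc5a1, the sodium-glucose transporter, was only 1.55-fold lower at 140.3 and 217 CPM, and Ada, adenosine deaminase, was at 12 and 11.1 CPM.

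Of 20 measured brush border hydrolases and peptidases, 15 were at least 2-fold lower and none higher. Sis, sucrase-isomaltase, had 57 counts (10.3 CPM) in GFP-high and 2012 (455 CPM) in GFP-low, 43.9-fold lower (interval 33.8 to 58.2). Alpi, the intestinal alkaline phosphatase, had 36 counts (6.54 CPM) in GFP-high and 1082 (245 CPM) in GFP-low, 37.4-fold lower (interval 26.9 to 53.7). Enpep, glutamyl aminopeptidase, was 24.6-fold lower at 10.2 and 250.4 CPM. Other members stood near equality. Mgam, maltase-glucoamylase, was at 1023 and 1094 CPM, and Dpp4, a dipeptidase, at 135 and 137 CPM. Proteins that build the microvillus differed less than the enzymes displayed on it. Of 20 measured, 5 were at least 2-fold lower, with a median of -0.65, among them Cdhr5, a cadherin that links microvillus tips (3.84-fold lower, 118 and 452 CPM). Vil1, which bundles actin, was 1.88-fold lower at 376 and 706 CPM. Myo7b, a motor of the tip complex, was 1.42-fold higher.

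The promoters of Rbp2 and Slc26a3, a chloride-bicarbonate exchanger of enterocytes (27.8 and 99.4 CPM, 3.58-fold lower), are shown because each holds a motif of the HNF4 factors near its start. This set was chosen after the values were seen. CAAAGTCCA and CAAAGGTCA were searched on both strands, and matches are in capitals. Rbp2 is read at chr9:98490287-98490536 on the plus strand, with a match on the reverse strand that begins 58 bases before the start. Slc26a3 is read at chr12:31437969-31438216 on the plus strand, with a match 136 bases before the start.
Rbp2: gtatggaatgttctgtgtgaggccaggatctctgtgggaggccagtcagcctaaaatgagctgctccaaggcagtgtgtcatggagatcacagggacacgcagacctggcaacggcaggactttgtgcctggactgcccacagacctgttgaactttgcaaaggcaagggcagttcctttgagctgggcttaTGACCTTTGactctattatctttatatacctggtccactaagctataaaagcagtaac
Slc26a3: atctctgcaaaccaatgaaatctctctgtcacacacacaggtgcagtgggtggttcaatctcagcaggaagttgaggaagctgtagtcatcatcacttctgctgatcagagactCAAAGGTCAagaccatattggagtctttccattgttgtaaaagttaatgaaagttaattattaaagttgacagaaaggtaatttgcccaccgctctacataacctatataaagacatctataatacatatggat
The motif was found in 3 of 30 (10%) enterocyte promoters, in 2.36% of promoters of genes at least 2-fold lower, in 0.402% of those at least 2-fold higher and in 0.741% of all measured promoters. With so few matches these shares describe the sequences and test nothing.

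The genes of lowest ratio also included several outside these lists. Apol10a, an apolipoprotein L, had 22 counts (3.99 CPM) in GFP-high and 821 (186 CPM) in GFP-low, 46.5-fold lower. Adgrg4, an adhesion receptor of enterochromaffin cells, was 38.3-fold lower on 4 and 123 counts, and Rgs2, a brake on G protein signals, 28.3-fold lower on 11 and 250. Slc51a, a basolateral bile acid carrier, was 27.8-fold lower, and its exons overlap another gene on the opposite strand. Enzymes and transporters of xenobiotics were lower as a group, with 25 of 34 measured at least 2-fold lower, none higher and a median of -1.80. Papss2, which makes the donor for sulfation, was 21.5-fold lower (interval 16.3 to 28.9) at 9.80 and 211 CPM, and Gsta1, a glutathione transferase, 17.3-fold lower on 15 and 208 counts. Adh1, alcohol dehydrogenase, had a log2 ratio of -0.29 on control diet and -1.88 on HFD. Aldh1a1, which makes retinoic acid, was 10.6-fold lower at 2.54 and 26.9 CPM.

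Genes of DNA replication were higher in GFP-high, most by less than 2-fold. Of 43 measured, 42 had a log2 ratio above 0, 3 were at least 2-fold higher and none lower, with a median of 0.71, and edgeR called 37 higher and none lower. With library totals 15 members were at least 2-fold higher, since many lie just under 2-fold. Pole, the catalytic subunit of the leading-strand polymerase, had 591 counts (107 CPM) in GFP-high and 213 (48.1 CPM) in GFP-low, 2.23-fold higher (interval 1.90 to 2.62). Cdt1, which loads the replicative helicase, was 2.22-fold higher at 73.9 and 33.2 CPM. Mcm6 and Mcm5, subunits of that helicase, were 1.72-fold higher (interval 1.55 to 1.90) at 209.9 and 122 CPM and 1.68-fold higher (interval 1.48 to 1.91) at 133 and 79.3 CPM. Pcna, the sliding clamp, was 1.44-fold higher at 71.7 and 49.7 CPM. On HFD, with TMM scaling, 16 members were at least 2-fold higher and the median was 0.85.

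The promoters of Mcm6 and Mcm5 are shown because they carry the motif of the E2F factors that time replication genes, in a set chosen after the values were seen. TTTCCCGC and TTTGGCGC were searched on both strands. Mcm6 is read from the minus strand at chr1:128359706-128359955, with matches 110 and 47 bases before the start, and Mcm5 from the plus strand at chr8:75109259-75109508, with a match on the reverse strand 149 bases before the start.
Mcm6: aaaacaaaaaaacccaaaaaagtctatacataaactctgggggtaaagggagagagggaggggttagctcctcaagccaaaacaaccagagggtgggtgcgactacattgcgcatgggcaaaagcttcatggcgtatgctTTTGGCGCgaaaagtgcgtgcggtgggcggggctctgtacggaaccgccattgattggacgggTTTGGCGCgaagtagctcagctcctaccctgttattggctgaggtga
Mcm5: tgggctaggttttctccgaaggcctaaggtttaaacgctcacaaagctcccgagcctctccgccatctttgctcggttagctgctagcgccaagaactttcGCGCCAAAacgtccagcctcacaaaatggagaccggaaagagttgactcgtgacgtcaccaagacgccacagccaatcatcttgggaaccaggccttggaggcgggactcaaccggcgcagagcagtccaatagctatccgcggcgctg
An E2F match was present in 11 of 34 (32.4%) DNA replication promoters, 5.62% of promoters of genes at least 2-fold higher, 1.18% of those at least 2-fold lower and 3.39% of all measured promoters.

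Mitotic genes differed less than replication genes. None of 56 measured was 2-fold apart in either direction, all 56 had a log2 ratio above 0, and the median was 0.50, while edgeR called 41 higher and none lower. Mki67, the marker of cycling cells, had 6508 counts (1182 CPM) in GFP-high and 3809 (861 CPM) in GFP-low, 1.37-fold higher (interval 1.32 to 1.43). The list ran from Kif15, a spindle motor, at 89.3 and 49.0 CPM (1.82-fold higher), down to Ccnb2, a mitotic cyclin, at 78.6 and 77.1 CPM. Both fractions thus held abundant messages of dividing cells.

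The regulators of entry into the cell cycle were more divided. Of 23 measured cyclins, kinases and inhibitors of G1, 3 were at least 2-fold higher and 4 lower. Cdk6, which with D cyclins starts the cycle, was 3.83-fold higher (interval 3.14 to 4.7) at 103 and 26.9 CPM, and Cdk4 was 1.86-fold higher at 258 and 139 CPM. The D cyclins themselves were close to equal, with Ccnd1 at 170.5 and 178 CPM and Ccnd2 at 489 and 516 CPM. E2f1 was 3.18-fold higher (30.9 and 9.72 CPM) while E2f2 was 2.48-fold lower (40.8 and 101 CPM). Inhibitors of these kinases were among the lower genes. Cdkn2b, which blocks Cdk4 and Cdk6, had 9 counts (1.63 CPM) in GFP-high and 219 (49.5 CPM) in GFP-low, 30.3-fold lower (interval 15.7 to 67.1), and Cdkn1a, the p53 target p21, had 47 counts (8.53 CPM) in GFP-high and 284 (64.2 CPM) in GFP-low, 7.52-fold lower (interval 5.51 to 10.5). The log2 ratio of Cdkn2b on HFD was -4.82. Rb1, the brake on E2F factors, was 2.76-fold lower at 30.7 and 84.8 CPM. Of 19 measured p53 targets, the list that also holds Cdkn1a, 6 were called higher and 4 lower by edgeR. Among all tested genes edgeR called 21.5% higher and 24.8% lower. Mdm2 was at 39.6 and 42.3 CPM.

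Genes that repair breaks and crosslinks in DNA were mostly higher in GFP-high. Of 35 measured, 6 were at least 2-fold higher (10 with library totals) and 1 lower, with a median of 0.69, and edgeR called 27 higher and 1 lower. Chek1, the replication checkpoint kinase, was 2.22-fold higher at 27.6 and 12.4 CPM, and Brca1, which directs repair by recombination, 1.68-fold higher at 43.2 and 25.8 CPM. Lig4, the ligase of end joining, went the other way at 10.2 and 25.1 CPM, 2.47-fold lower. Among 27 genes of DNA methylation and Polycomb complexes, Dnmt1, which copies methylation after replication, was 1.96-fold higher at 338 and 173 CPM. Tet1, an enzyme that oxidises methylated cytosine, was 6.59-fold higher on 82 and 10 counts, whereas Tet2 and Tet3 had log2 ratios of -0.20 and -0.14. Enzymes that supply purines were at the head of the nucleotide list, with Paics 2.49-fold higher (137 and 54.9 CPM) and Impdh2 2.64-fold higher (125 and 38 counts), and 4 of 26 measured were at least 2-fold higher.

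Genes that build ribosomes were also higher in GFP-high, mostly by less than 2-fold. Myc, which drives them, had 1687 counts (306 CPM) in GFP-high and 540 (122 CPM) in GFP-low, 2.51-fold higher (interval 2.28 to 2.77), and Mycl was 2.54-fold higher at 102 and 40.2 CPM. Of 50 measured genes of ribosome biogenesis and Myc, 2 were at least 2-fold higher, 1 lower and edgeR called 32 higher and none lower, with a median of 0.44. Ncl, nucleolin, was 1.68-fold higher at 1008 and 599 CPM, and Npm1, nucleophosmin, 1.63-fold higher at 260.0 and 159 CPM. Of 67 measured ribosomal proteins, whose counts are uncertain because of processed copies in the genome, 1 was at least 2-fold higher, and the median was 0.29.

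Messages of the respiratory chain that nuclear genes encode were lower in GFP-high with little variation between them. Under TMM scaling all 65 measured had a log2 ratio below 0, none reached 2-fold, and the median was -0.47 on control diet and -0.55 on HFD, with 56 called lower and none higher by edgeR. A few members close to 0, such as Cox7c, change sign with library totals. Ndufv3, of complex I, was at 42.3 and 81.4 CPM (1.92-fold lower). Atp5b, a subunit of the ATP synthase, was at 1289 and 1660.3 CPM, and Cycs, cytochrome c, at 31.0 and 58.5 CPM. The 12 measured messages encoded by mitochondria had a median of -0.09 (0.0693 with library totals). The genes of the Krebs cycle and pyruvate entry had a median of -0.35 over 27 genes, of which Idh1 and Mdh2, both dehydrogenases, were at least 2-fold lower (53.7 and 121 CPM and 324 and 683 CPM).

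Glycolysis and glucose production showed single genes with large differences. Pfkp, a phosphofructokinase, had 189 counts (34.3 CPM) in GFP-high and 801 (181 CPM) in GFP-low, 5.28-fold lower (interval 4.50 to 6.22), and Ldha, which makes lactate, 1749 counts (318 CPM) in GFP-high and 3281 (742 CPM) in GFP-low, 2.34-fold lower. Of 20 measured glycolytic genes, 5 were at least 2-fold lower and none higher, with a median of -0.51. Pck2, the mitochondrial form of the enzyme that starts glucose production, was 2.44-fold higher (interval 2.06 to 2.91) on 538 and 177 counts, and Pck1, the cytosolic form, was 12-fold lower on 8 and 77 counts. The paralogous enzymes thus took opposite sides. Khk, which traps fructose, was 2.68-fold lower at 28 and 75 CPM.

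Genes that oxidise fatty acids were mostly lower in GFP-high by less than 2-fold. Cpt1a, which admits fatty acids to mitochondria, was 1.61-fold lower (interval 1.48 to 1.74) at 191 and 307 CPM. Of 21 measured genes of mitochondrial fatty acid oxidation, Acot1 (38 and 13 counts) was at least 2-fold higher and none lower, the median was -0.30, and edgeR called 13 lower and 1 higher. The receptors Ppara and Ppard were at 20.3 and 36.4 CPM and 156 and 249.5 CPM, and Pparg at 29 and 42 counts. Of 18 measured genes of peroxisomal lipid oxidation, 1 was at least 2-fold lower and none higher, with a median of -0.40, and edgeR called 13 lower. Bdh1 and Oxct1, enzymes of ketone body use, were near equality at 213 and 216 CPM and 126 and 148 CPM.

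**Figure D4:**
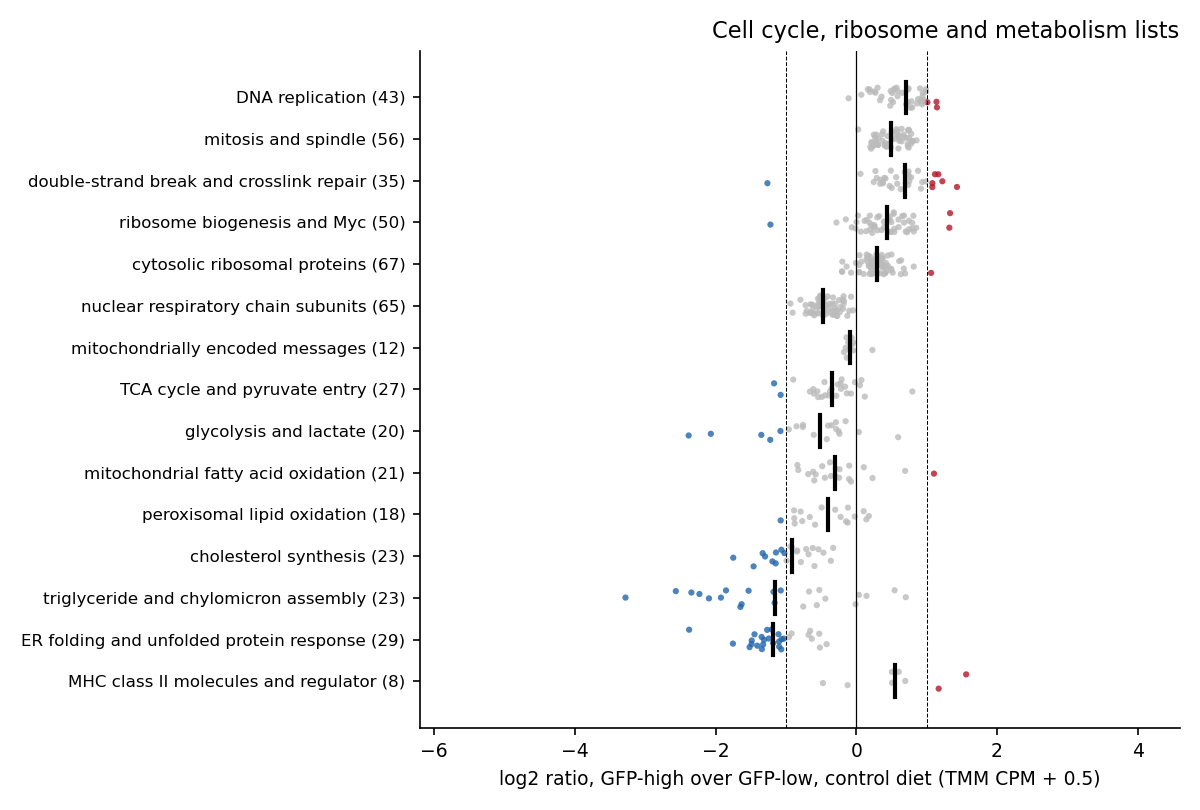
Log2 ratio (GFP-high over GFP-low) on control diet for the measured members of 15 lists of growth, metabolic and other genes. Each dot is 1 gene and the black bar is the list's median, and the DNA replication list (median 0.71) lies above 0 while the cholesterol synthesis list (median -0.92) lies below it.

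Genes of cholesterol synthesis were lower in GFP-high, though not each of them beyond counting error. All 23 measured genes had a log2 ratio below 0, 9 were at least 2-fold lower (5 with library totals) and none higher, with a median of -0.92 on control diet and -0.87 on HFD, and edgeR called 21 lower. Hmgcs1, an early enzyme of the pathway, had 519 counts (94.2 CPM) in GFP-high and 1150 (259.9 CPM) in GFP-low, 2.76-fold lower (interval 2.48 to 3.07). Sqle, the squalene epoxidase, was 1.92-fold lower (interval 1.65 to 2.24) at 50.3 and 96.5 CPM. Msmo1, a late demethylation enzyme, was 3.41-fold lower at 23.6 and 80.5 CPM, and Cyp51, which acts beside it, 2.47-fold lower at 59.2 and 146 CPM. Srebf2, the factor that switches the pathway on, was 1.38-fold lower at 192 and 266 CPM. For Acat2 and Tm7sf2 the counting intervals included equality (0.932 to 1.80 and 0.869 to 1.85). The log2 ratio of Tm7sf2 on HFD was 0.20. Npc1l1, which absorbs cholesterol from the gut, was 8.0-fold lower (interval 6.79 to 9.48) at 30.1 and 241 CPM. Of 15 measured genes of cholesterol uptake and export, 2 were at least 2-fold higher and 6 lower, with a median of -0.45, and edgeR called 4 higher and 8 lower. The higher ones were Abca1, an exporter, at 74 and 13 counts (4.57-fold higher) and Soat1, which esterifies cholesterol, at 292 and 70.7 CPM (4.12-fold higher). Abcg8, another exporter, was 1.37-fold lower at 41.8 and 57.2 CPM. Soat1 also stands on the list of crypt base markers, and Soat2, its enterocyte counterpart, was 3.09-fold lower.

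The promoters of Hmgcs1 and Srebf2 are shown because Hmgcs1 holds a sterol response element and both hold CCAAT boxes. They were chosen after the values were seen. The stretch read for Cyp51, whose CPM difference lay between theirs, ended 50 bases before the start and held no match to either motif. Over the full window of 300 bases Cyp51 held a CCAAT box but no sterol element. TCACCCCAC and TCACACCAC were searched as sterol response elements and CCAAT as the box of the factor NF-Y, on both strands. Hmgcs1 is read at chr13:119690101-119690350 on the plus strand. Its sterol element begins 137 bases before the start, and CCAAT boxes on the reverse strand begin 237, 176 and 45 bases before it. Srebf2 is read at chr15:82147019-82147180 on the plus strand, with a CCAAT box on the reverse strand 135 bases before the start, and matches are in capitals.
Hmgcs1: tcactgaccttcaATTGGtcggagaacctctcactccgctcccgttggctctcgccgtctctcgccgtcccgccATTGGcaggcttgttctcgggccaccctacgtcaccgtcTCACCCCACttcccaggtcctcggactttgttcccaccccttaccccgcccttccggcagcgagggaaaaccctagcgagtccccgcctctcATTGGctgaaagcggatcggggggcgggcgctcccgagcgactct
Srebf2: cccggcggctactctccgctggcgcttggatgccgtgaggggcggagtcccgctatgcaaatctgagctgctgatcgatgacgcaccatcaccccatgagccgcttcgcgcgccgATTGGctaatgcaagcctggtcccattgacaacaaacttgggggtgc
A CCAAT box was present in 15 of 17 (88.2%) cholesterol synthesis promoters and in 39.2% of all measured promoters, and a sterol element in 1 of 17 (5.88%) and 0.647%. In promoters of genes at least 2-fold higher and at least 2-fold lower, the shares were 40.4% and 36.3% for the box. For the sterol element they were 0.602% and 1.18%. The box was also frequent in other lists, among them ER folding (83.3%), mitosis (73.5%) and DNA replication (70.6%).

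Genes that pack dietary fat into chylomicrons were lower in GFP-high, and those that make new fatty acids were mixed. Of 23 measured genes of triglyceride and chylomicron assembly, 13 were at least 2-fold lower and none higher, with a median of -1.16. Mttp, which loads lipid onto apolipoprotein B, had 689 counts (125 CPM) in GFP-high and 2818 (637 CPM) in GFP-low, 5.09-fold lower (interval 4.68 to 5.54). Mogat2, which rebuilds triglyceride, was 10.5-fold lower (interval 7.24 to 15.6) on 32 and 269 counts, and Apoa1 and Apoa4, apolipoproteins, were 6.02-fold lower and 4.79-fold lower. The log2 ratio of Apoa1 was -2.56 on control diet and -3.97 on HFD. Of 16 measured genes of fatty acid synthesis, 3 were at least 2-fold lower, among them Elovl6, an elongase (3.25-fold lower, 61.4 and 199.6 CPM), and none higher. Fasn, fatty acid synthase, was at 306 and 349.6 CPM, and the desaturases Fads1 and Fads2 were 1.92-fold higher and 1.55-fold higher.

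Chaperones of the endoplasmic reticulum, which fold secreted proteins, were lower in GFP-high. Of 29 measured genes of folding and the unfolded protein response, 21 were at least 2-fold lower and none higher, with a median of -1.18 on control diet and -0.83 on HFD, and edgeR called 28 lower. Hspa5, the central chaperone, had 1981 counts (359.6 CPM) in GFP-high and 3770 (852 CPM) in GFP-low, 2.37-fold lower (interval 2.24 to 2.50). Xbp1, a factor of secretory cells, was 2.41-fold lower on 551 and 1068 counts, and Ern2, a stress sensor known from mucus-making cells, 5.24-fold lower (interval 4.55 to 6.05) at 43.9 and 230.1 CPM. Ddit3, which marks unresolved stress, stood at 43 and 47 counts. Goblet cell markers, whose summed level was 4496 CPM in GFP-high and 44652 CPM in GFP-low, moved with this list, and their part in it was not tested. Ern2 stands on both lists.

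Of 6 measured keratins, 3 were at least 2-fold lower in GFP-high and none higher. Krt8 and Krt19, keratins of simple epithelium, were 2.61-fold lower (1020.2 and 2665 CPM) and 2.68-fold lower (647 and 1733 CPM). Epcam and Cdh1, present on all epithelial cells, were near equal at 864 and 1019 CPM and 1139 and 1314 CPM. Cldn2, a leaky-junction claudin of crypts, was 2.31-fold higher (interval 2.12 to 2.51) at 395 and 171 CPM, and Lamb3, a laminin chain, 4.75-fold higher (interval 3.56 to 6.44) at 59.0 and 12.4 CPM. Of 14 measured genes of chloride secretion and the guanylin system, 5 were at least 2-fold higher and 4 lower, with Kcnq1, a potassium channel, 2.96-fold higher (374 and 127 CPM), Aqp4, a water channel, 3.27-fold higher (222 and 67.8 CPM), and Cftr, the chloride channel, 1.64-fold higher (371 and 225 CPM), on the higher side. The carbonic anhydrase Car4 went the other way, 13.5-fold lower at 10.9 and 147 CPM. Of 28 measured carriers of ions, sugars and phosphate, 12 were at least 2-fold lower and 1, Slc12a2, higher. Of 20 amino acid and peptide carriers, 8 were lower and 2 higher, Slc1a2 and Slc7a5 (2.14-fold higher).

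Of 8 measured MHC class II genes, 2 were at least 2-fold higher and none lower, with a median of 0.56 on control diet and 1.06 on HFD, and edgeR called 6 higher and 1 lower. Ciita, the factor that switches on the class, had 377 counts (68.4 CPM) in GFP-high and 101 (22.8 CPM) in GFP-low, 3.0-fold higher (interval 2.40 to 3.77). H2-Ab1, a class II chain, was 1.52-fold higher (interval 1.41 to 1.65) at 344 and 226 CPM, and Cd74, the invariant chain, 1.42-fold higher at 1344 and 944 CPM. Of 28 measured MHC class I and interferon-induced genes, 1 was at least 2-fold higher and 2 lower, with a median of -0.33. Over all measured genes the shares were 6.06% higher and 9.24% lower. B2m, the shared chain of class I, was at 606 and 705 CPM, and Nlrc5, the regulator of class I, was 1.93-fold higher at 25.2 and 13.1 CPM. Leukocyte markers, which could bring class II messages, summed to 7509 counts in GFP-high and 4363 in GFP-low, of which Cd74 itself was 7406 and 4179. Without it they summed to 103 and 184 counts, and 16 of the 32 markers were at 0 in both or not in the tables. Those at 0 included the pan-leukocyte marker Ptprc, the B cell marker Cd79a and the macrophage markers Csf1r and Adgre1. Others of the list were detected, among them Itgam (60 and 131 counts), Cd68 (23 and 12), Lyz2 (5 and 17) and Cd79b (4 and 6). MHC genes have near-identical relatives, so single members are uncertain. Markers of mesenchyme, muscle and endothelium summed to 86 and 211 counts, with the collagens Col1a1 and Col3a1 at 0 in both libraries. Of these the largest was Vim, with 7 and 113 counts, which stands on the enteroendocrine list as well.

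Immune and stress genes outside antigen presentation are given by single members. Jun, an immediate early factor, had 611 counts (111 CPM) in GFP-high and 87 (19.7 CPM) in GFP-low, 5.64-fold higher (interval 4.50 to 7.15), while its partner Fos was 2.43-fold lower on 40 and 78 counts. Their ratios on HFD were log2 2.91 and -0.91. Il18, a cytokine of epithelial cells, was 10.3-fold lower on 10 and 83 counts. Nox1, an oxidase of crypts, was 2.51-fold higher at 39.8 and 15.8 CPM, and its log2 ratio on HFD was 0.07. Pxdn, a peroxidase of basement membrane, was 3.26-fold higher at 109 and 33.4 CPM.

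By difference in CPM, the largest gain was that of Olfm4. After it, the largest gains were those of Clca3b, a relative of the calcium-activated chloride channel regulators, at 4809.5 and 1799.7 CPM (2.67-fold higher), Slc12a2, Cps1, which starts the urea cycle, at 3312 and 1814 CPM (1.83-fold higher), and Pabpc1, which binds poly(A) tails, at 2747 and 1738 CPM (1.58-fold higher). The largest losses were those of Fcgbp, Clca1, Zg16, Dmbt1, a mucosal scavenger protein, at 3149 and 8581 CPM (2.73-fold lower), and Lars2, a mitochondrial tRNA synthetase, at 38405 and 44786 CPM (1.17-fold lower). The level of Lars2 per kilobase, 3463 and 4039 CPM, was above that of Olfm4 in GFP-high (2283) and is reported as uncertain. Genes with 0 counts on one side were few. Chst2, a sulfotransferase, had 21 counts in GFP-high and 0 in GFP-low, at least 5.62-fold higher. Ido1, which breaks down tryptophan, had 0 and 36, at least 14.9-fold lower, and had 0 counts in both HFD libraries. Otop3, a proton channel, had 0 and 29, Afp, alpha-fetoprotein, 0 and 27, and Slc13a2, a citrate carrier, 0 and 22 counts. With plain library totals as sizes, a count of 0 allows up to 0.577 CPM in GFP-high and up to 0.641 CPM in GFP-low. The folds just given use TMM sizes instead.

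The HFD pair, which shares no library with the control pair, gave ratios in the same direction for nearly all of the large differences. On HFD 782 of 10979 measured genes (7.12%) were at least 2-fold higher in GFP-high and 989 (9.01%) lower. Of 613 genes at least 2-fold higher on control diet and measured in both pairs, 407 (66.4%) were also at least 2-fold higher on HFD, 599 had the same sign and none was 2-fold the other way. Of 935 lower genes, 681 (72.8%) were also at least 2-fold lower, 923 had the same sign and none was 2-fold the other way. Read from the other side, 58.6% of the 694 genes higher on HFD and 74.5% of the 914 lower were also at least 2-fold apart on control diet. Across 10618 genes the log2 ratios of both pairs had a Pearson correlation of 0.877 and a Spearman correlation of 0.832, as a description over genes, which share libraries and depth. The median absolute difference between the pairs was 0.21. The medians of the control-higher genes were 1.31 on control diet and 1.21 on HFD, and those of the control-lower genes -1.58 and -1.39. With 4 libraries, the difference between the diets in any of these ratios leaves no degree of freedom for a test.

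**Figure D5:**
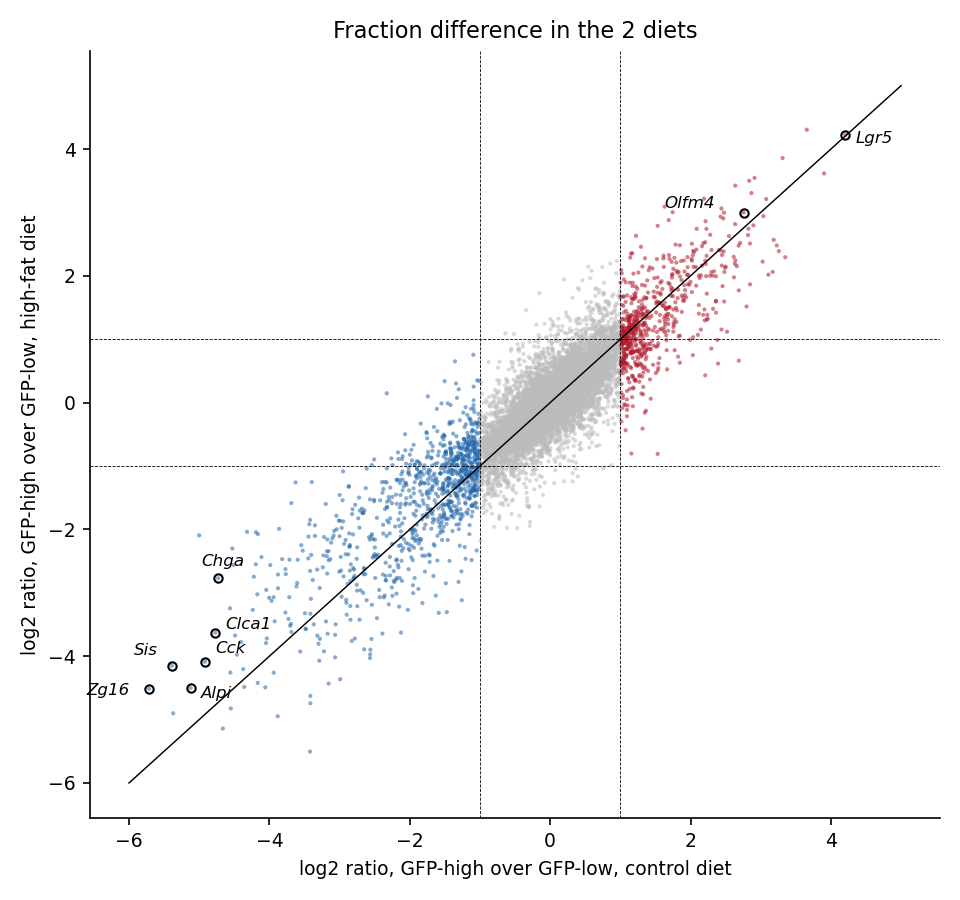
Each point is a gene measured in both pairs (10618 genes), with its log2 ratio (GFP-high over GFP-low) on control diet on the x axis and on HFD on the y axis. The line marks equal ratios, red and blue mark genes at least 2-fold higher and lower on control diet, Lgr5 lies on the line at the upper end, and Chga lies closer to 0 on HFD.

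Lists differed between the pairs in how far they stood from 0. Goblet, enteroendocrine and secretory factor lists had medians of -2.74, -3.24 and -1.72 on control diet and -1.82, -2.04 and -1.04 on HFD. The enterocyte list went from -2.30 to -2.72, and the stem cell list was at 2.13 and 2.22. These are values side by side, and the differences between the diets were not tested. Lgr5 itself had 242 and 12.7 CPM on control diet and 242 and 12.5 CPM on HFD. Zg16 had 54.6 and 2893 CPM on control diet and 50.7 and 1170.2 CPM on HFD, and Tph1 had 2 and 120 counts on control diet and 17 and 62 on HFD.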

How the data were processed

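Poly(A) RNA of 4 pooled libraries was sequenced with a dUTP strand-specific kit, per the labels' protocols. The authors deposited raw read counts per Ensembl gene, 1 table a library. The submitters' processing notes name cutadapt, TopHat 1.4.1, HTSeq, and GRCm38 and mm10 as builds. Strand setting and annotation release: not given in the sources used here. Symbols were matched for 36345 IDs, and the 1779 others held 2.22% and 2.33% of the control counts. Counts were scaled by TMM over the 4 libraries (edgeR 4.0.16 in R 4.3.3) to CPM, with a minimum of 20 counts in either library and 0.5 CPM added before log2. Intervals are Clopper-Pearson based at 95%. The edgeR quasi-likelihood test, with Benjamini-Hochberg adjustment, had 1 residual degree of freedom. The SE given with its log2 ratio is the absolute log2 ratio over the square root of the F statistic. Depth ran from 4677389 to 6207080 counts.

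Named genes were the 15 highest and 15 lowest log2 ratios at 20 CPM or more, the 5 largest CPM gains and losses, the 5 highest counts against 0 on each side, and members of lists, and a few of these are not reported here. All members, lists and rules were chosen with earlier results of these data known. Alternatives were other scalings, pseudocounts, filters, thinning to equal depth, removal of mitochondrial messages, DESeq2 1.42.0 and a fit without diet.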

Additional observations from a re-analysis of the deposited data

Results flagged for a closer look

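For 3 genes the ratio of GFP-high over GFP-low pointed in opposite directions on the diets, with both counting intervals excluding equality. Fbp1, which takes part in glucose production, had a log2 ratio of 0.48 on control diet (149 and 85 counts) and -0.40 on HFD (231 and 227 counts). Cat, catalase, had 0.18 (831 and 589 counts) and -0.28 (1370 and 1236 counts). Hnf4a had -0.0561 (6119 and 5110 counts) and 0.0577 (7539 and 5378 counts). With library totals the opposition holds for Fbp1 (0.64 and -0.19) and Cat (0.34 and -0.0719), but for Hnf4a both values are above 0 (0.11 and 0.27). With 1 library per diet and fraction the difference between the diets was not tested.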

How the results depend on the processing

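The count of genes at least 2-fold apart depended most on the count minimum. Without a minimum 2832 of 17398 genes were at least 2-fold apart (1227 higher and 1605 lower), and with at least 100 counts 960 of 7785 (339 and 621). Pseudocounts of 0.1 and 2 CPM gave 715 and 1038, and 485 and 893. Other size factors, thinning and removal of mitochondrial messages gave 636 to 674 higher and 996 to 1011 lower, while library totals gave 919 and 826. Over both diets, DESeq2's Wald test called 2390 genes (899 higher and 1491 lower), a fit without the diet term 2794 (1199 and 1595), and library totals in edgeR 3628 higher. Medians of 7 lists changed sign. Under library totals these were intestinal identity factors (0.0463), p53 targets (0.0586), mitochondrially encoded messages (0.0693) and fatty acid synthesis (0.0728). With at least 100 counts these were ephrins (-0.10), leukocyte markers (-0.45) and integrins and laminins (-0.0949). The last 3 rest on fewer genes at that minimum, and those under library totals follow from the shift of all ratios. No named gene at least 2-fold apart changed direction under library totals, DESeq2 size factors, 2 CPM or thinning, but genes just below 0, such as Hnf4a and Ccnd1, turned positive under library totals. With 2 CPM added the enteroendocrine median was -2.38 against -3.24, and the goblet median -2.70. No paired analysis was possible because each group is 1 library. At this depth a gene with 0 counts can hold up to 3 counts.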

Other observations

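Several groups beyond those above were also measured. Over all measured genes 6.06% were at least 2-fold higher and 9.24% lower, and the counts of these small lists are to be read beside those shares. Of 12 measured retinoid genes, none was at least 2-fold higher in GFP-high and 4 were lower, with a median of -0.77. Of 26 measured genes of glutathione and the Nrf2 response, 3 were at least 2-fold lower and none higher (median -0.24). Srxn1, a repair enzyme of peroxiredoxins, was at 11.4 and 55.4 CPM and Nqo1, a quinone reductase, at 8.71 and 36.4 CPM. Of 14 measured clock genes, 1 was at least 2-fold higher and 3 lower, with Per1 2.15-fold higher and Bhlhe40 3.05-fold lower. Of 29 measured junction genes, 1 was higher and 2 lower (median -0.23), and of 19 integrins and laminins, 4 were higher and 1 lower. Of 5 measured M cell markers, 1 was higher and 2 lower. Of 11 genes of the EGF receptor family and its ligands, 2 were higher and 2 lower. Markers of nerve, glia and red cells summed to 18 and 37 counts, with 8 of 13 at 0 in both libraries or not in the tables.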
